A study of Mus musculus with 30 samples.

Results

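The genes of the contractile apparatus of smooth and cardiac muscle were followed through the blood differentiation of mouse embryonic stem cells (ESC) that carried mutations in the transcription factors Sp1 or Sp3. The members were chosen by gene symbol and number 10 of the 14685 genes in the deposited table. Of these, 5 are smooth muscle genes (Acta2, Tagln, Cnn1, Myl9 and Tpm1) and 5 are cardiac muscle genes (Actc1, Myl3, Myl4, Myl7 and Tnnt2). All 10 members passed the filter on low values and were among the 14525 genes tested. RNA was sequenced from 30 samples of the E14 mouse ESC line, namely from 5 populations in 3 genotypes with 2 replicates each. The populations were ESC, Flk1+ cells purified from embryoid bodies on magnetic columns, and 3 populations sorted at day 2 of blast culture, a culture in which Flk1+ cells form endothelium and blood. HE1 cells are hemogenic endothelium (KIT+, Tie2+, CD41-), HE2 cells are a later hemogenic endothelium (KIT+, Tie2+, CD41+), and progenitors are the blood progenitors that have lost the endothelial marker (KIT+, Tie2-, CD41+). The genotypes were wild-type (WT), Sp1ΔDBD/ΔDBD (labelled Sp1_deltaDBD), in which the domain that contacts DNA is missing from both Sp1 alleles, and Sp3-/- (labelled Sp3KO), in which Sp3 is knocked out. All genotypes passed through the same steps, including blast medium with VEGF and IL-6, but the time in embryoid bodies depended on the cell line, so genotype and duration cannot be told apart. The lines were maintained on fibroblast feeder cells and kept without them for 2 passages before differentiation. The study's methods call the replicates biological without giving clones, cultures or days, so the p-values measure the spread between these samples.

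Muscle contracts when myosin heads pull on actin filaments. Acta2 and Actc1 encode the smooth muscle and cardiac forms of alpha actin. Tpm1 (tropomyosin) lies along the filament, Tagln (transgelin) and Cnn1 (calponin) bind it in smooth muscle, and Tnnt2 (cardiac troponin T) anchors the calcium-sensing troponin complex to tropomyosin. Myl9 is the regulatory light chain of smooth and non-muscle myosin, Myl7 the regulatory light chain of the atrium, and Myl4 and Myl3 the essential light chains of the atrium and the ventricle. Several of these genes are switched on by serum response factor (SRF), which binds the CArG box, and they are also made outside mature muscle, in the embryonic heart field, in smooth muscle precursors, in fibroblasts and in spreading cells in culture. Flk1+ mesoderm can give rise to endothelium, blood, smooth muscle and heart. In the mouse genome (GRCm38, GENCODE) Acta2 lies at chr19:34241090-34255590, Tagln at chr9:45929619-45936058, Cnn1 at chr9:22099216-22109630, Tpm1 at chr9:67022590-67049406 and Myl4 at chr11:104550663-104595753.

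The sequences just before the transcription start are shown because Sp1 and Sp3 bind the GC box, and because the CArG box is shared by muscle genes that differed here in level and in response. RefSeq promoter windows (250 bases before to 50 after the start, build GRCm38.p6) were found for 9 of the 10 members, all but Tagln. The CArG box (CCWWWWWWGG, where W is A or T) lay in the window of 4 members (Actc1, Myl9, Myl3 and Myl7) and in 1.63% of all 32851 windows. Boxes with a G or C within the core were not counted, so a window without a match may still hold such a box. The GC box (GGGCGG on either strand) lay in the windows of Myl9 and Tpm1 and in 35.7% of all windows, and the MCAT element (CATTCC on either strand), a motif known from cardiac troponin T, in those of Tnnt2, Myl3, Myl7, Tpm1 and Acta2 and in 14.7% of all windows. These motifs do not overlap one another in the members' windows. The matches in the windows of Tpm1 and Acta2 lie inside annotated exons of these genes. Only 57 and 33 bases of these 2 windows lie outside such exons. A match is a description of the letters only. The stretches below run 5′ to 3′ on the gene's own strand, upstream of the RefSeq start and outside annotated exons, with motif matches in capitals. The capitals are a CArG box in Actc1 (chr2:114052888-114052962, minus strand), a CArG box followed by 3 GC boxes in Myl9 (chr2:156775283-156775412, plus strand), a CArG box in Myl3 (chr9:110763553-110763642, plus strand), an MCAT element and then a CArG box in Myl7 (chr11:5898794-5898883, minus strand), and an MCAT element in Tnnt2 (chr1:135836257-135836332, plus strand).
Actc1: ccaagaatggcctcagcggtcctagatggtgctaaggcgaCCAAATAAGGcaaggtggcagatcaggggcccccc
Myl9: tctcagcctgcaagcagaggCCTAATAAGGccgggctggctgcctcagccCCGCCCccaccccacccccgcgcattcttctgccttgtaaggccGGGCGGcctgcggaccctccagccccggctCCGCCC
Myl3: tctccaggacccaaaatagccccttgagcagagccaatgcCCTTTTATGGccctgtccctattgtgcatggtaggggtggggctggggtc
Myl7: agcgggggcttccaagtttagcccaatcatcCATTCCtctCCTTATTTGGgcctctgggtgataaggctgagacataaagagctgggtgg
Tnnt2: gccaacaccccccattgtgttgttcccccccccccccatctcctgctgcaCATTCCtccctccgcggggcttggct

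The deposited values are fragments per kilobase of transcript, scaled to the reads of the library (FPKM), a level per transcript length, quantile normalised across samples. The number of reads behind a value is unknown, so the spread between replicates is the only measure of error. Values near 0 need care, since the lowest value of a sample lay between 0 and 0.0234 FPKM. Myl3 was at the lowest value of its sample in 23 of 30 samples, Myl7 in 13 and Tnnt2 in 5. Sequence shared with other genes was small, as at most 0.326% of the 50-base stretches of a member's transcripts occurred in another gene, and Acta2 and Actc1 shared 0 of them. Sp3 RNA was 3.38 to 7.79 FPKM in the 10 Sp3-/- samples and 25.9 to 58.1 FPKM in the 10 WT samples. Sp1 RNA was still present in Sp1ΔDBD/ΔDBD cells (14.8 to 40.5 FPKM, against 24.9 to 52.4 FPKM in WT), and the RNA of an allele that lacks 1 domain is no check of that label. Marker genes matched the population labels. The summed level of 8 pluripotency markers was 2102 to 2798 FPKM in ESC and at most 15.3 FPKM in blast culture, and that of 10 endothelial markers was highest in HE1 (1577 to 2505 FPKM). The myogenic regulators of skeletal muscle were not in the table (0 of 7).

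In WT cells the smooth muscle genes had their highest mean in HE1 and a lower one in the blood progenitors. Acta2 stood at 6.83 and 3.59 FPKM in ESC (replicates 1 and 2), 0.480 and 0.698 in Flk1+ cells, 1138 and 224 in HE1, 257 and 34.8 in HE2, then 166 and 38.5 in progenitors. Both HE1 samples lay above every ESC and Flk1+ sample, but the HE1, HE2 and progenitor groups overlapped. Tagln followed the same order, with 33.0 and 12.8 FPKM in ESC, 5.67 and 3.58 in Flk1+ cells, 517 and 117 in HE1, 167 and 31.7 in HE2, then 89.8 and 36.3 in progenitors. Tpm1 was abundant in every population, at 123 and 69.1 FPKM in ESC, 224 and 240 in Flk1+ cells, 1159 and 437 in HE1, 406 and 185 in HE2, then 323 and 185 in progenitors. For Tpm1 the HE1 samples did not overlap those of any other WT population, whereas HE2, progenitors and Flk1+ cells overlapped. Myl9 ranged from 6.08 and 7.15 FPKM in Flk1+ cells to 65.5 and 16.1 in HE1, with 9.66 and 5.56 in ESC, 29.1 and 7.87 in HE2, then 16.4 and 11.4 in progenitors. Cnn1 was the least abundant smooth muscle gene, at 5.05 and 1.36 FPKM in ESC, 4.77 and 3.30 in Flk1+ cells, 15.9 and 2.23 in HE1, 5.99 and 0.491 in HE2, then 3.35 and 1.21 in progenitors. No 2 neighbours in the order of its WT levels were separated by more than the spread of their samples.

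The cardiac genes did not share 1 pattern in WT cells. Both atrial light chains had their highest level in Flk1+ cells. Myl7 was at 7.07 and 5.07 FPKM in ESC and 11.5 and 8.14 in Flk1+ cells, and then at 1.69 and 0 in HE1, 0.547 and 7.32e-04 in HE2, then 0.253 and 8.32e-04 in progenitors. Myl4 was highest in Flk1+ cells (9.33 and 7.47 FPKM), against 0.927 and 0.922 in ESC, 2.88 and 0.207 in HE1, 1.18 and 0.455 in HE2, then 2.44 and 0.744 in progenitors. For both light chains the Flk1+ samples lay above all other WT samples. Tnnt2 instead was listed at 0 in both ESC samples and stood at 0.399 and 0.105 FPKM in Flk1+ cells, 5.83 and 13.6 in HE1, 3.63 and 3.54 in HE2, then 1.42 and 1.33 in progenitors. It was the only member whose 5 WT populations were all separated in order, each from the next, by more than the spread of their samples. Actc1 stood at 0.748 and 0.323 FPKM in ESC, 8.39 and 4.25 in Flk1+ cells, 33.4 and 2.01 in HE1, 9.88 and 0.652 in HE2, then 4.35 and 1.07 in progenitors, so that its HE1 samples lay on either side of the Flk1+ samples. Cardiac actin was more abundant than smooth muscle actin in Flk1+ cells, where Actc1 came to 1749% and 609% of the Acta2 level, and in WT HE1 it came to 2.94% and 0.896%. Myl3 was barely detected in WT cells, at 0.315 and 0.105 FPKM in ESC and at most 0.0578 in any later WT sample.

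**Figure D1:**
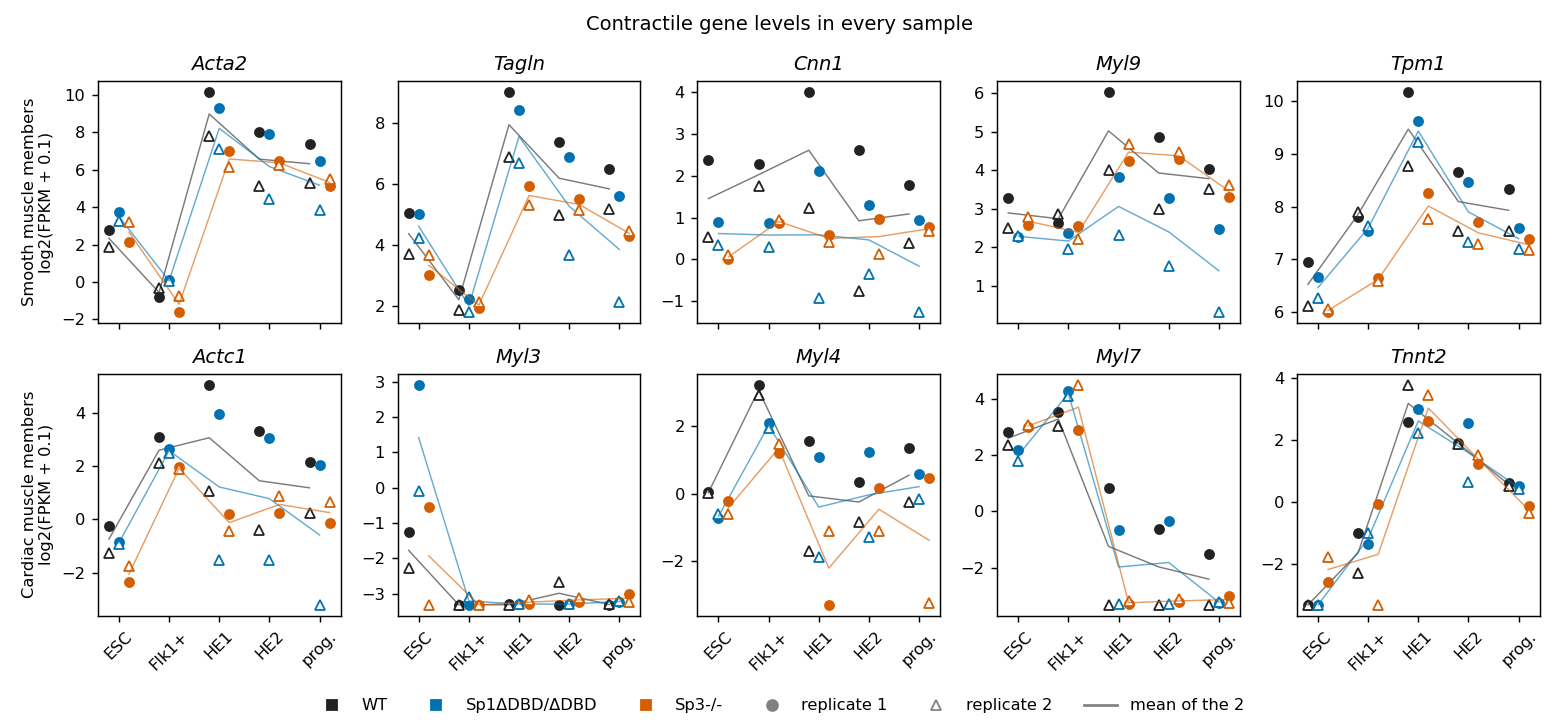
Level of each of the 10 members on the log2(FPKM + 0.1) scale in the 5 populations, with 1 point per sample (filled circles replicate 1, open triangles replicate 2), colours for the 3 genotypes and lines through the mean of the 2 replicates. Acta2, Tagln and Tpm1 peak in HE1 in every genotype, Myl4 and Myl7 peak in Flk1+ cells, and the 2 replicates of WT and Sp1ΔDBD/ΔDBD lie far apart in blast culture.

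The steps between WT populations were tested with limma on log2(FPKM + 0.1), with p-values adjusted over all genes tested in each comparison. From ESC to Flk1+ cells 3 of 10 members passed the test, in a step where 52.2% of all genes did. Acta2 fell by 2.90 on the log2 scale (SE 1.10, limma adjusted p = 0.0342), while Myl4 rose by 3.04 (SE 1.18, adjusted p = 0.0363) and Tpm1 by 1.33 (SE 0.430, adjusted p = 0.0141). Leaving out single ESC or Flk1+ libraries left 0 or 1 of these calls. Acta2 and Myl4 were lost without any 1 of the 4 libraries (adjusted p from 0.0606 to 0.162), and Tpm1 without replicate 2 of ESC (0.170) or of Flk1+ cells (0.0666). From Flk1+ cells to HE1, 7 of 10 members passed, against 53.0% of all genes. Of these, 5 rose (23.5% of all genes rose), led by Acta2 with 9.54 (SE 1.10, adjusted p = 7.93e-07), Tagln with 5.73 (SE 1.05, adjusted p = 1.39e-04) and Tnnt2 with 4.82 (SE 0.742, adjusted p = 2.23e-05), followed by Myl9 with 2.28 (SE 0.719, adjusted p = 0.0117) and Tpm1 with 1.62 (SE 0.430, adjusted p = 0.00374). The 2 members that fell (29.5% of all genes fell) were the atrial light chains, Myl7 by 4.53 (SE 1.13, adjusted p = 0.00226) and Myl4 by 3.14 (SE 1.18, adjusted p = 0.0305). The calls of Acta2, Tagln and Tnnt2 were kept when any 1 of the 4 libraries was left out. Without replicate 1 of WT HE1 the changes of Myl9 and Tpm1 were 1.28 (adjusted p = 0.214) and 0.91 (0.115), and without replicate 2 of WT HE1 those of Myl4 and Myl7 were -1.50 (0.382) and -2.45 (0.0886). The call of Myl4 was also lost without either Flk1+ library (0.113 and 0.0814), and that of Myl9 without replicate 1 of Flk1+ cells (0.0605). In bulk RNA of sorted cells, fewer cells of a type and less RNA per cell cannot be told apart.

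From HE1 to HE2 only Tpm1 passed, falling by 1.38 (SE 0.430, limma adjusted p = 0.0275), where 21.9% of all genes did. The other 4 smooth muscle genes and Actc1 had changes of -1.10 to -2.41 that missed the threshold, with overlapping groups. The Tpm1 call was lost without replicate 1 of WT HE1 (-0.67, adjusted p = 0.390) or replicate 2 of WT HE2 (-0.81, 0.292). The replicates of the 3 blast culture populations carry the same numbers, and in WT the same-numbered samples deviated together, with correlations across genes of 0.310 to 0.380. With a block for the number over these 3 populations, an analysis chosen after the values were seen, 6 members fell, namely the 5 smooth muscle genes and Actc1, with Acta2 at -2.41 (limma adjusted p = 3.21e-04) and Myl9 at -1.10 (0.0103), and of all genes 14.4% fell in the same analysis, against 10.2% without the block. Within each replicate number Acta2, Tagln, Cnn1, Myl9, Tpm1 and Actc1 were all lower in HE2 than in HE1. These are the same values as in the block fit and not a second result. The share of all genes lower in both pairs was not counted. Between HE2 and progenitors 0 of 10 members passed, where 13.2% of all genes did, and 0 had an unadjusted p under 0.05.

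Before the genotypes are compared, the libraries of blast culture need a description, because the 2 replicates of WT and of Sp1ΔDBD/ΔDBD stood apart in these genes. This was seen in the values and is given without a test. In WT HE1, HE2 and progenitor cells, replicate 1 was higher in 15 of 15 pairs of a smooth muscle gene and a population, and by more than 2-fold in 13 of 15, while 4.56% of all pairs of gene and population were more than 2-fold higher in replicate 1. In Sp1ΔDBD/ΔDBD cells replicate 1 was higher in 15 of 15 pairs and by more than 2-fold in 13, against 5.83% of all pairs. In Sp3-/- cells replicate 1 was higher in 10 of 15 pairs and more than 2-fold higher in 0, against 3.10%. Of all pairs of gene and population 47.8% in WT, 44.0% in Sp1ΔDBD/ΔDBD and 48.3% in Sp3-/- were higher in replicate 1. The cardiac genes were higher in replicate 1 in 12 of 15 pairs in WT, 11 in Sp1ΔDBD/ΔDBD and 6 in Sp3-/-. They were more than 2-fold higher in 9, 8 and 2 pairs. Actc1 was 16.7-fold higher in replicate 1 of WT HE1 and 63.0-fold higher in replicate 1 of Sp1ΔDBD/ΔDBD HE1. Tnnt2 in WT HE1 was instead higher in replicate 2. In ESC and Flk1+ cells, 2 of 10 smooth muscle pairs in WT and 0 of 10 in each mutant were more than 2-fold higher in replicate 1.

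**Figure D2:**
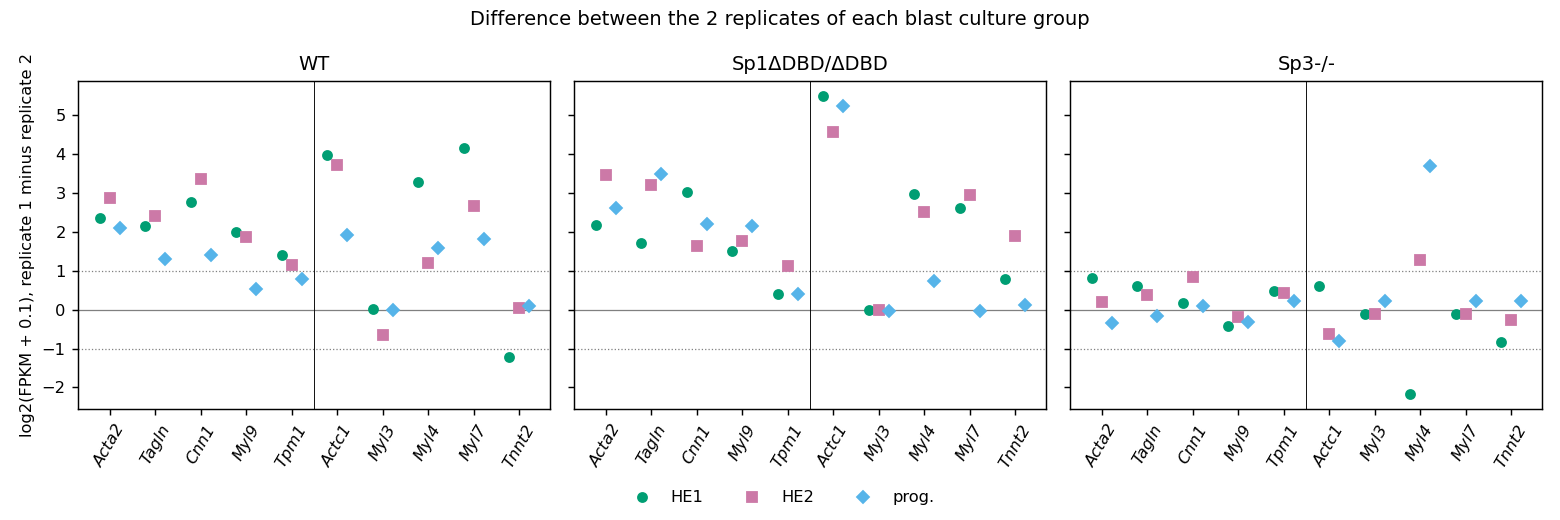
Difference between replicate 1 and replicate 2 on the log2(FPKM + 0.1) scale for each member in HE1, HE2 and progenitor cells, by genotype, with dotted lines at a 2-fold difference. All smooth muscle points of WT and Sp1ΔDBD/ΔDBD are above 0, and those of Sp3-/- lie within the dotted lines.

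Markers of other cells moved with the smooth muscle genes. The summed level of the smooth muscle members was 2895 and 796 FPKM in the WT HE1 samples, 1787 and 853 in Sp1ΔDBD/ΔDBD HE1, and 515 and 357 in Sp3-/- HE1. Of 12 mesenchymal and fibroblast markers 9 were in the table, and their sum was 314 and 58.6 FPKM in WT HE1, 141 and 21.3 in Sp1ΔDBD/ΔDBD HE1, and 46.4 and 35.5 in Sp3-/- HE1. The fibroblast markers Dcn, Lum and Prrx1 were not in the table. In replicate 1 of WT HE1 most of the sum came from the matrix genes Col1a1 (95.0 and 6.08 FPKM), Postn (89.8 and 6.74) and Col1a2 (78.3 and 11.1), given for both replicates and named after their values were seen, while Thy1 was at 8.90e-04 and 0.142 and Pdgfra at 1.02 and 1.10. The sum of 8 epithelial markers was 823 and 83.5 FPKM, 258 and 14.3, and 82.7 and 32.7 in the same samples. In WT and Sp1ΔDBD/ΔDBD both sums were higher in replicate 1 than in replicate 2 in HE1, HE2 and progenitors, as was the sum of the smooth muscle members. Across groups the order was not the same, since replicate 2 of Sp1ΔDBD/ΔDBD HE1 had the lowest mesenchymal and epithelial sums of all HE1 samples and a smooth muscle sum above both Sp3-/- samples. The sum of 10 haematopoietic markers was also higher in replicate 1 of WT, at 160 and 117 FPKM in HE1, 1145 and 727 in HE2, then 13579 and 4590 in progenitors, with 5, 4 and 3 of the 10 genes more than 2-fold higher. Endothelial markers were lower in replicate 1 of WT and Sp1ΔDBD/ΔDBD HE1, with 1577 and 2505 FPKM in WT HE1, 1741 and 2283 in Sp1ΔDBD/ΔDBD HE1, and 1820 and 1799 in Sp3-/- HE1. In Sp1ΔDBD/ΔDBD HE2 they were higher in replicate 1 (1032 and 823 FPKM, 3 of 10 genes by more than 2-fold). In ESC the mesenchymal sum was 8.70 and 9.95 FPKM in WT, 20.9 and 30.4 in Sp1ΔDBD/ΔDBD, and 6.40 and 16.3 in Sp3-/-. The part of such cells in the levels of the members was not tested.

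**Figure D3:**
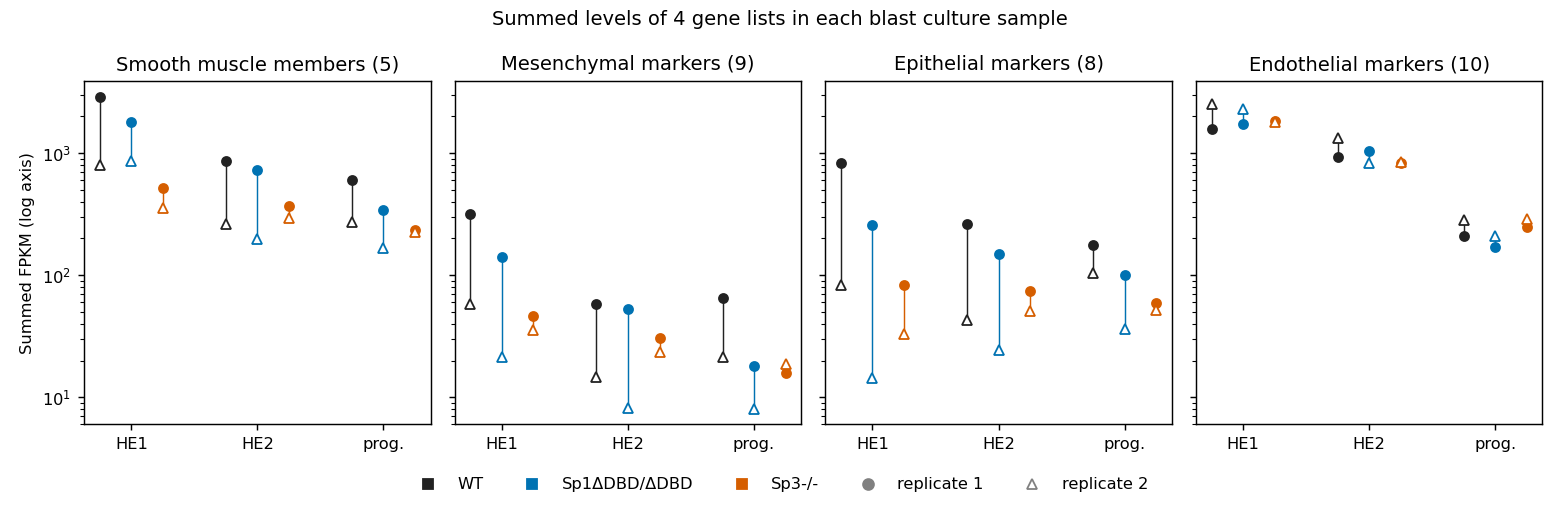
Summed FPKM of the smooth muscle members and of mesenchymal, epithelial and endothelial markers in HE1, HE2 and progenitor samples on a log axis, with a line joining the 2 replicates of a group (circle replicate 1, triangle replicate 2). In WT and Sp1ΔDBD/ΔDBD HE1 replicate 1 is above replicate 2 for the first 3 lists and below it for endothelial markers.

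How the loss of the Sp1 DNA-binding domain or of Sp3 alters expression was asked by setting each mutant against WT, population by population. All these comparisons share their WT samples. In Sp1ΔDBD/ΔDBD cells 1 of 10 members passed the test in ESC (6.06% of all genes), 0 in Flk1+ cells (5.54%), 0 in HE1 (5.69% higher and 4.35% lower), 0 in HE2 (9.67%) and 1 in progenitors (8.78%). At an unadjusted p under 0.05 there were 1, 0, 1, 1 and 1 members. The share of all genes at that threshold was not counted, so these numbers show no excess among the members.

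Myl3, the ventricular light chain, was higher in Sp1ΔDBD/ΔDBD ESC, with 7.44 and 0.843 FPKM against 0.315 and 0.105 in WT. The groups did not overlap, but replicate 1 of the mutant was 8.83-fold above replicate 2 and was the only 1 of 30 samples with Myl3 above 1 FPKM. The log2 fold change was 3.19 (SE 0.732, limma adjusted p = 0.0126). It missed the threshold when ESC were fitted alone (limma adjusted p = 0.292), in a fit that called only 0.0138% of all genes. It also missed it without replicate 2 of WT ESC (2.69), which leaves 1 library in that group. Without the high mutant library the gene no longer passed the filter. The other cardiac members did not move with it, as Actc1 (0.455 and 0.434 FPKM in the mutant), Myl4 (0.502 and 0.555) and Myl7 (4.46 and 3.40) had log2 fold changes of -0.14, -0.71 and -0.61 in ESC, and Tnnt2 was listed at 0 in all 4 samples.

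Myl9 was the smooth muscle gene that passed the test in Sp1ΔDBD/ΔDBD cells. In progenitors it fell from 16.4 and 11.4 FPKM in WT to 5.44 and 1.14, a log2 fold change of -2.40 (SE 0.719, limma adjusted p = 0.0427). Its levels were also below WT in ESC (4.73 and 4.82 FPKM, -0.61), in Flk1+ cells (5.10 and 3.75 FPKM, -0.58) and in HE1 (14.0 and 4.85 FPKM, -1.97, adjusted p = 0.0898) without overlap, and in HE2 (9.62 and 2.77 FPKM, -1.53, adjusted p = 0.20) with overlap. The call in progenitors was lost without replicate 1 of WT (-2.14), replicate 2 of WT (-2.66) or replicate 2 of the mutant (-1.32). These fits leave 1 library in a group. With progenitors fitted alone it was also lost (limma adjusted p = 0.179), in a fit that called only 0.592% of all genes. Once a block for the replicate number was fitted, Myl9 passed in HE1 as well (-1.97, limma adjusted p = 0.0499). With that block 5.39% of all genes were called lower in HE1, against 4.35% without it. Between samples of the same number, Myl9 differed from WT by -2.22 and -1.71 in HE1 (replicates 1 and 2). The differences were -1.59 and -1.47 in HE2, and -1.57 and -3.22 in progenitors. They were taken after the values were seen and were not tested.

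The other smooth muscle genes were not separated from WT in Sp1ΔDBD/ΔDBD blast culture. Acta2 stood at 13.4 and 9.37 FPKM in ESC and 0.959 and 0.935 in Flk1+ cells, above both WT samples in each, and at 631 and 139 in HE1, 239 and 21.6 in HE2, then 89.5 and 14.4 in progenitors, overlapping WT in each. Tagln stood at 31.9 and 18.6 FPKM in ESC, 4.59 and 3.36 in Flk1+ cells, 341 and 104 in HE1, 117 and 12.6 in HE2, then 48.1 and 4.23 in progenitors, where its log2 fold change was -1.98 (SE 1.05, limma adjusted p = 0.277). Cnn1 was at 1.76 and 1.17 FPKM in ESC, 1.74 and 1.12 in Flk1+ cells (below both WT samples), 4.22 and 0.424 in HE1, 2.35 and 0.680 in HE2, then 1.82 and 0.317 in progenitors. Tpm1 stood at 101 and 77.2 FPKM in ESC, 187 and 200 in Flk1+ cells (below both WT samples), 797 and 604 in HE1, 353 and 162 in HE2, then 194 and 146 in progenitors, with log2 fold changes from -0.54 to -0.04. In HE1 the sign of the difference depended on 1 library for Acta2, Tagln, Tpm1 and Actc1, whose log2 fold changes of -0.77, -0.38, -0.04 and -1.85 became 0.41, 0.69, 0.67 and 0.15 without replicate 1 of WT, which leaves the replicate numbers unbalanced. Between samples of the same number, Acta2 differed from WT in HE1 by -0.85 and -0.68 (replicates 1 and 2), Tagln by -0.60 and -0.17, Actc1 by -1.10 and -2.60, and Tpm1 by -0.54 and 0.47. In progenitors all 5 smooth muscle genes lay below the WT sample of the same number in both replicates, from -0.34 for Tpm1 to -3.22 for Myl9. Without the pairing by number, which no source ties to a culture, only Myl9 was separated from WT there. The share of all genes below WT in both pairs was not counted.

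The cardiac genes of Sp1ΔDBD/ΔDBD cells after the ESC stage did not pass the test. Actc1 was at 6.22 and 5.58 FPKM in Flk1+ cells, 15.6 and 0.247 in HE1, 8.30 and 0.252 in HE2, then 4.03 and 0.00816 in progenitors. Myl7 was at 19.2 and 17.3 FPKM in Flk1+ cells, above both WT samples (0.90, SE 1.13, limma adjusted p = 0.774), and at most 0.691 FPKM in later samples. Myl4 was at 4.18 and 3.78 FPKM in Flk1+ cells, below both WT samples (-1.05, SE 1.18, adjusted p = 0.732), and at 2.03 and 0.171 in HE1, 2.24 and 0.308 in HE2, then 1.40 and 0.793 in progenitors. Thus the atrial light chains lay on opposite sides of WT in the same Flk1+ samples, neither of them beyond the error of the fit. Tnnt2 was at 0.288 and 0.399 FPKM in Flk1+ cells, 7.91 and 4.53 in HE1, 5.68 and 1.45 in HE2, then 1.33 and 1.23 in progenitors, overlapping WT in all 4 populations.

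In Sp3-/- cells 0 of 10 members passed in ESC (11.3% of all genes), 0 in Flk1+ cells (12.6%), 1 in HE1 (10.9%), 0 in HE2 (13.8%) and 0 in progenitors (8.65%). At an unadjusted p under 0.05 there were 0, 1, 3, 0 and 0 members, again without a count of all genes at that threshold. In HE1 9 of 10 members had a log2 fold change below 0, with a median of -2.06 against 0.05 over all genes tested, and 5 lay below WT without overlap, where 26.0% of all genes did. In the other populations the median of the members lay between -0.33 and -0.77.

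Tpm1 was the member with a test passed in Sp3-/- cells. In HE1 it fell to 307 and 218 FPKM from 1159 and 437 in WT, a log2 fold change of -1.46 (SE 0.430, limma adjusted p = 0.0345), with both mutant samples below both WT samples. It was also below both WT samples in ESC (63.8 and 66.9 FPKM, -0.50), in Flk1+ cells (99.8 and 96.9 FPKM, -1.24, adjusted p = 0.0662) and in progenitors (168 and 144 FPKM, -0.66), and overlapped WT in HE2 (210 and 157 FPKM, -0.59). In Flk1+ cells, where its replicates were close in all genotypes, Tpm1 passed once a block for the replicate number was fitted (limma adjusted p = 0.00510) and when Flk1+ cells were fitted alone (0.0226). These fits called 6.98% and 7.46% of all genes lower, against 5.94% in the main fit. The call in HE1 was lost without replicate 1 of WT (-0.76) and without replicate 1 (-1.71) or 2 (-1.21) of Sp3-/-. These fits leave 1 library in a group. With HE1 fitted alone the call was also lost (limma adjusted p = 0.174). That fit called only 0.00688% of all genes, so it could hardly keep a call.

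Acta2 and Tagln were lower in Sp3-/- HE1 without passing the test. Acta2 stood at 127 and 71.7 FPKM, below 1138 and 224 in WT, a log2 fold change of -2.40 (SE 1.10, limma adjusted p = 0.174). Tagln stood at 60.8 and 39.7 FPKM, below 517 and 117 in WT (-2.32, SE 1.05, adjusted p = 0.167). Both passed once a block for the replicate number was fitted (limma adjusted p = 0.0448 and 0.0498). With that block 6.35% of all genes were called lower, against 4.87% without it. Cnn1 (1.40 and 1.24 FPKM, -2.11) and Actc1 (1.04 and 0.643 FPKM, -3.19, SE 1.76) were also below both WT samples, whereas Myl9 (19.0 and 25.7 FPKM, -0.55) lay between the WT samples. The number of calls in HE1 moved whichever library was left out, to 0 without replicate 1 of WT or either Sp3-/- replicate and to 2 without replicate 2 of WT. Between samples of the same number, Acta2 differed from WT in HE1 by -3.17 and -1.64 (replicates 1 and 2) and Tagln by -3.08 and -1.55. Cnn1 differed by -3.42 and -0.80, Actc1 by -4.88 and -1.50, Tpm1 by -1.92 and -1.0, and Myl9 by -1.78 and 0.67. Myl4 differed by -4.88 and 0.59, Myl7 by -4.14 and 0.13, and Tnnt2 by 0.03 and -0.34. These differences were taken after the values were seen and were not tested.

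In HE2 the Sp3-/- samples of Acta2 (88.8 and 76.6 FPKM), Tagln (45.5 and 35.3), Cnn1 (1.85 and 0.994) and Actc1 (1.09 and 1.74) all lay between the WT samples, and so did Acta2 (35.6 and 44.9), Cnn1 (1.62 and 1.51) and Actc1 (0.807 and 1.48) in progenitors, apart from 1 Acta2 and 1 Actc1 sample that lay below them. Tagln in progenitors (19.5 and 21.9 FPKM) lay below both WT samples (-1.46, limma adjusted p = 0.443). Myl9 stood at 5.83 and 6.81 FPKM in ESC, 5.78 and 4.56 in Flk1+ cells (below both WT samples), 19.4 and 22.1 in HE2, then 9.81 and 12.2 in progenitors, with log2 fold changes from -0.55 to 0.45. In ESC and Flk1+ cells Acta2 (4.26 and 9.23, then 0.226 and 0.490 FPKM) overlapped WT, and Tagln was at 7.90 and 12.6, then 3.68 and 4.29 FPKM. Cnn1 (0.915 and 0.974, then 1.74 and 1.81 FPKM) and Actc1 (0.0975 and 0.194, then 3.79 and 3.61 FPKM) lay below both WT samples in both populations, with no call.

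The cardiac genes of Sp3-/- cells did not pass the test in any population. Myl4 was at 2.20 and 2.70 FPKM in Flk1+ cells, below both WT samples (-1.74, SE 1.18, limma adjusted p = 0.376), and at 0.00151 and 0.361 in HE1. Myl7 was at 7.97 and 8.32 FPKM in ESC, above both WT samples (0.44), at 7.40 and 22.7 in Flk1+ cells, and at most 0.0234 in later samples. Tnnt2 was above WT in ESC, where both WT samples were listed at 0 and the mutant at 0.0676 and 0.190 FPKM, overlapped it in Flk1+ cells (0.858 and 0) and HE1 (5.96 and 10.8), and was below both WT samples in HE2 (2.25 and 2.74 FPKM, -0.51) and progenitors (0.803 and 0.674 FPKM, -0.82). Myl4 and Myl7 lie on chromosome 11, where the median change of the other 1190 genes tested was -0.12 to -0.34 in the 10 comparisons with WT, against -0.01 to 0.07 on the other chromosomes. Set against that median, Myl4 was at -1.62 and Myl7 at 0.54 in Sp3-/- Flk1+ cells.

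**Figure D4:**
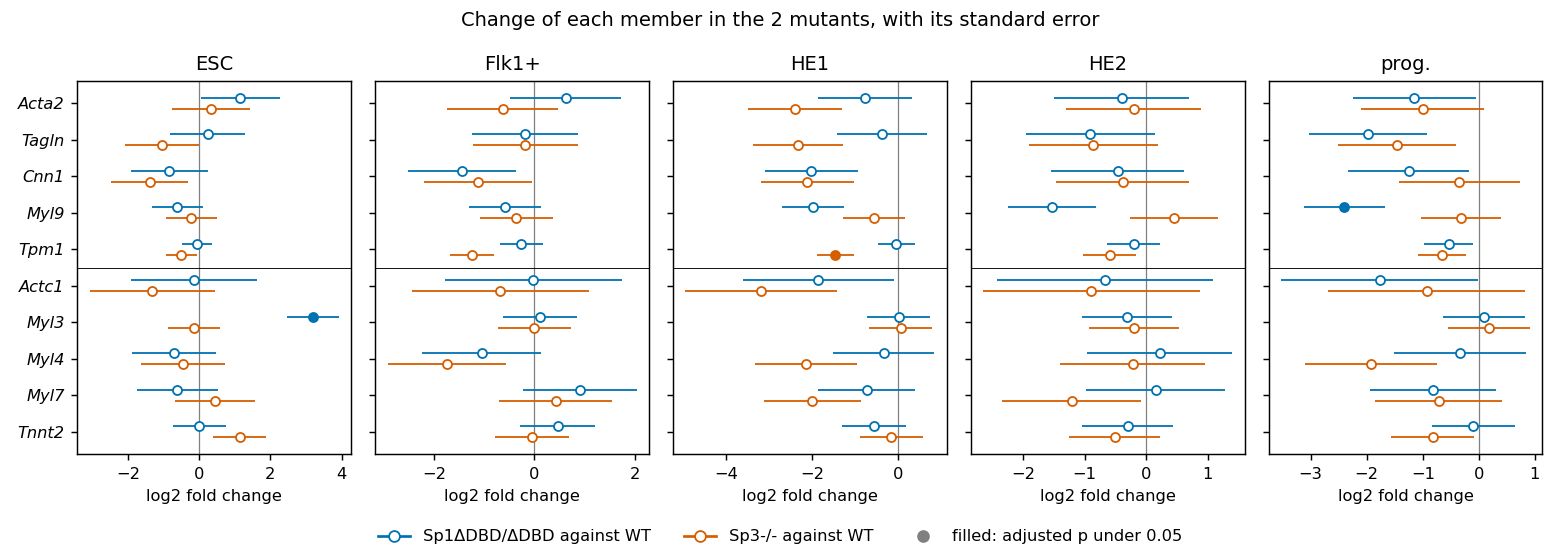
Log2 fold change of each member in Sp1ΔDBD/ΔDBD and Sp3-/- cells against WT in the 5 populations, with bars of 1 standard error of the limma fit (scales differ between panels) and filled points where the adjusted p was under 0.05. Only Myl3 in ESC, Myl9 in progenitors and Tpm1 in HE1 are filled.

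A call in 1 mutant and none in the other is no difference between them, so the mutants were also compared directly. Sp3-/- and Sp1ΔDBD/ΔDBD differed in 1 of 10 members in ESC (9.67% of all genes), 0 in Flk1+ cells (7.39%), 1 in HE1 (13.6%), 0 in HE2 (15.9%) and 0 in progenitors (11.6%). Myl3 was lower in Sp3-/- ESC (0.586 and 0 FPKM) than in Sp1ΔDBD/ΔDBD ESC by 3.35 on the log2 scale (SE 0.732, limma adjusted p = 0.00698), where replicate 1 of Sp1ΔDBD/ΔDBD was again the high library. This call was lost with ESC fitted alone (limma adjusted p = 0.234), where the share of all genes called was not counted. It was also lost without replicate 2 of Sp3-/- (-1.96), which leaves 1 library in that group. Tpm1 was lower in Sp3-/- HE1 than in Sp1ΔDBD/ΔDBD HE1 (797 and 604 FPKM) by 1.42 (SE 0.430, adjusted p = 0.0335), and this call was lost when any 1 of the 4 libraries was left out (adjusted p from 0.0664 to 0.228). Myl9 was higher in Sp3-/- than in Sp1ΔDBD/ΔDBD cells without overlap in HE1, HE2 and progenitors, by 1.41, 1.98 and 2.08, with adjusted p of 0.214, 0.0688 and 0.0683. It was thus the member on which the mutants lay furthest apart in HE2 and progenitors, short of the threshold. The steps between populations were also compared between each mutant and WT, and 0 of 10 members differed in any of the 8 comparisons. Of all genes 1.74%, 1.53%, 0.00688% and 0.0207% differed for Sp1ΔDBD/ΔDBD along the 4 steps, and 1.48%, 4.02%, 0% and 0.0275% for Sp3-/-. At an unadjusted p under 0.05 there was 1 member, in the step of Sp1ΔDBD/ΔDBD from ESC to Flk1+ cells, and all genes were not counted at that threshold.

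The other genes of the pathway, from lists drawn up by function, were counted in the same comparisons. Of 14 other smooth muscle contractile genes tested, 10 rose and 1 fell from Flk1+ cells to HE1, where 23.5% of all genes rose and 29.5% fell. From HE1 to HE2, where 11.7% rose and 10.2% fell, 1 of the 14 rose and 5 fell. The 3 with the largest change on the first step were Actg2, the enteric smooth muscle actin, with 6.0 and 0.886 FPKM in HE1 against a listed 0 in both Flk1+ samples, Mylk, the myosin light chain kinase (3.60, SE 0.274, limma adjusted p = 3.89e-09), and Lmod1, which nucleates actin filaments in smooth muscle (2.78, SE 0.980, adjusted p = 0.0228). Of 12 non-muscle paralogues 10 rose and 0 fell on that step, led by Tagln2 (2.43, SE 0.20, adjusted p = 1.08e-08), a relative of Tagln. Of 18 other cardiac sarcomere and conduction genes tested 4 rose and 2 fell. The medians of the 3 lists were 1.83, 1.20 and 0.53, against -0.08 over all genes.

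In Sp3-/- HE1, where 6.02% of all genes rose and 4.87% fell, 0 of 14 other smooth muscle genes rose and 3 fell against WT, with a list median of -0.76 against 0.05 over all genes. These were Actg2 (0.00151 and 0.00960 FPKM, against 6.0 and 0.886 in WT, adjusted p = 0.0163 with limma), Csrp1, an SRF-driven cytoskeletal protein (-0.99, SE 0.302, adjusted p = 0.0411), and Vcl, the focal adhesion protein vinculin (-0.88, SE 0.221, adjusted p = 0.0152). In Sp1ΔDBD/ΔDBD cells Des, which encodes the muscle intermediate filament desmin, fell in all 5 populations, by 2.19 in ESC, 2.37 in Flk1+ cells, 2.88 in HE1, 2.76 in HE2 and 2.48 in progenitors (SE 0.449 each, limma adjusted p from 3.89e-04 to 0.00590). Its levels were 1.59 and 1.47 FPKM in mutant Flk1+ cells against 8.19 and 8.44 in WT, with replicates close to each other, and no member passed the test in more than 1 population of this mutant. Of 12 non-muscle paralogues 2 fell and 0 rose in Sp3-/- HE1, namely Myh10 and Cnn3, and of 18 other cardiac genes 1 fell and 0 rose, Nppb, at 1.82 and 0.588 FPKM in WT and 0.00151 and 0.00960 in Sp3-/-.

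Srf, the factor that binds the CArG box, was at 13.1 and 11.4 FPKM in WT HE1 and rose in Sp3-/- Flk1+ cells (22.3 and 19.2 FPKM, against 12.5 and 11 in WT, 0.82, SE 0.180, limma adjusted p = 0.00644) and HE2 (21.2 and 22.3 FPKM, against 9.87 and 15.7, 0.80, adjusted p = 0.00695). Its cofactor myocardin was not in the table. Of 11 SRF-related genes outside the sarcomere that were tested, 10 rose and 0 fell from Flk1+ cells to HE1 in WT, against 23.5% and 29.5% of all genes, and 5 fell and 0 rose in Sp3-/- HE1, against 4.87% and 6.02%. The 3 with the largest change in Sp3-/- HE1 were Thbs1, the matrix protein thrombospondin (12.7 and 8.96 FPKM, against 125 and 76.5, -3.18, SE 0.399, adjusted p = 1.05e-04), Ctgf, a secreted matrix protein (-2.05, SE 0.490, adjusted p = 0.0116), and Fhl2 (-1.96, SE 0.500, adjusted p = 0.0169). Thbs1 fell in Sp3-/- HE2 (-1.75) and progenitors (-1.81) as well (adjusted p = 0.00753 and 0.00840). In Sp1ΔDBD/ΔDBD HE1 0 of the 11 passed in either direction, and in progenitors 3 fell, where 5.04% of all genes did.

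Cardiac transcription factors were tested beside the cardiac members. All 10 rose from ESC to Flk1+ cells in WT, with a median of 7.14, where 27.4% of all genes rose. Gata4 went from 0.133 and 0.224 FPKM to 38.5 and 39.5 (7.15, SE 0.361, limma adjusted p = 8.06e-12). Of the 5 cardiac members 1, Myl4, rose on that step, near the share of all genes. Nkx2-5 was at 2.75 and 2.75 FPKM in WT HE1 and fell to 0.0665 and 0.0847 in HE2 (-4.02, SE 0.709, adjusted p = 5.84e-04). In Sp3-/- HE2 it was at 2.27 and 1.35 FPKM, above WT by 3.40 (SE 0.709, adjusted p = 0.00438), and Gata4 was above WT in Sp3-/- ESC (1.80, adjusted p = 0.00354) and progenitors (1.51, adjusted p = 0.0137). In the same Sp3-/- samples 0 of the 5 cardiac members passed the test. Hand1 was at 33.9 and 45.1 FPKM in Sp1ΔDBD/ΔDBD and 45.3 and 56.3 in Sp3-/- Flk1+ cells, against 153 and 168 in WT (log2 fold changes of -2.03 and -1.66, adjusted p = 0.414 and 0.423).

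The members were not 1 module across the 15 groups. Over the group means of log2(FPKM + 0.1), which share their 30 libraries, Pearson correlations between smooth muscle members ran from 0.00 to 0.94 with a median of 0.55 over 10 pairs, highest for Acta2 and Tagln (0.94) and lowest for Acta2 and Cnn1 (0.00). Between cardiac members they ran from -0.77 to 0.63 with a median of -0.06. The genes whose pattern was most like the mean profile of the smooth muscle members were Sqstm1 (Pearson r = 0.958), Cyr61 (0.932), Lgals1 (0.929), Copg1 (0.928) and Arf1 (0.923) over the 15 groups. For the cardiac members these were Wnk1 (0.915), Nf1 (0.913), Mrc2 (0.911), Hes1 (0.902) and Ube2b (0.894). When genes were ranked by Spearman's correlation, 2 of the 5 stayed among the first 5 for each profile.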

How the data were processed

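RNA was measured in 30 samples of 15 groups. The authors depleted rRNA, made stranded paired-end libraries, trimmed the reads, mapped them with HISAT2 (2.1.0) on mm10, computed FPKM with StringTie (1.3.3 in the submitters' processing notes), kept genes above 1 FPKM and quantile normalised the deposited FPKM values. The gene annotation used is not given in the sources used here. Quantile normalisation forces every sample to 1 distribution (values at the same rank differed by at most 0.192 FPKM), so a shift of all RNA cannot be seen, and the depth is unknown.

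From these values log2(FPKM + 0.1) was fitted with limma (3.58.1, R 4.3.3) over all 30 samples with 1 mean per group, for the 14525 genes above 1 FPKM in at least 1 sample. Moderated tests used 15 residual and 3.92 prior degrees of freedom, p-values were adjusted by Benjamini-Hochberg over all genes tested in each of 27 comparisons, and the threshold was 0.05. Fold changes on this scale understate the change of low genes. An exact permutation test of 2 against 2 samples cannot go below p = 0.333 and was not used. The fit was tested on simulated data. Replicate numbers come from the labels, and no source ties the same number to 1 culture or day. The members and gene lists were chosen with earlier results of these data known. All 10 members are named, and of each other list at most the 3 called genes with the largest change in a comparison, plus Sp1, Sp3, Srf, Gata4, Nkx2-5, Hand1 and Tbx5. Positions come from GENCODE M21 (GRCm38, 14214 symbols matched) and sequences from the RefSeq promoter table (GRCm38.p6). Alternatives were another pseudocount, a stricter filter and none, each population fitted alone, a replicate block, a fold rule and each sample left out.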

Additional observations from a re-analysis of the deposited data

How the results depend on the processing

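With 2 samples a group and unknown depth, the numbers of members called are small. A count was taken as unchanged if it stayed within 1.5 times the reported one, or if a reported 0 stayed 0. Many of the reported counts were 0, so the rule says little about those. By this rule all 27 were unchanged without a filter on low values, 25 with the stricter filter and 25 with a pseudocount of 1. With the replicate block 18 were unchanged. With each population fitted alone 8 were unchanged and 7 moved, and under the fold rule 1 was unchanged and 18 moved. With samples left out 127 were unchanged and 49 moved. The cause of the changes was not tested. With genes above 3 FPKM in at least 2 samples, 0 members were called in Sp1ΔDBD/ΔDBD ESC against WT (6.43% of all genes). In Sp3-/- against Sp1ΔDBD/ΔDBD ESC 0 were called, and the share of all genes was not counted. With a pseudocount of 1, 0 were called in Sp1ΔDBD/ΔDBD progenitors (Myl9 at -1.99, limma adjusted p = 0.0522), where 9.39% of all genes were. From HE1 to HE2 2 were called, against 22.9% of all genes. With each population fitted alone, 0 were called in Sp1ΔDBD/ΔDBD ESC (0.0138% of all genes) and 0 in Sp1ΔDBD/ΔDBD progenitors (0.592%). In Sp3-/- cells 2 were called in Flk1+ cells (14.4%) and 0 in HE1 (0.00688%). Where such a fit called so few genes, a count of 0 says nothing about the members. Between the mutants 0 were called in ESC, 1 in Flk1+ cells and 0 in HE1, and the share of all genes was not counted. A fold change of group means above 2, with no test, held for 3, 2, 4, 2 and 4 members in Sp1ΔDBD/ΔDBD ESC, Flk1+, HE1, HE2 and progenitor cells, for 4, 3, 7, 4 and 4 in Sp3-/- cells, for 7 from ESC to Flk1+ cells, 8 from HE1 to HE2 and 1 from HE2 to progenitors, and for 5, 1, 7, 3 and 1 between the mutants. Of all genes 7.54% to 11.3% met it in the comparisons of genotypes and 13.1% to 35.5% in the WT steps.

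The replicate number as a block called 1 member in Sp1ΔDBD/ΔDBD HE1 (11.8% of all genes), 1 in Sp3-/- Flk1+ cells (14.7%) and 3 in Sp3-/- HE1 (13.6%). Along the WT steps it called 6 from ESC to Flk1+ cells (54.3%) and 2 from HE1 to HE2 (24.8%). In the step of Sp1ΔDBD/ΔDBD from ESC to Flk1+ cells against that of WT it called 1. Between the mutants it called 1 each in Flk1+, HE2 and progenitor cells. For these comparisons of steps and of mutants the share of all genes was not counted. The block moved no other count by over 1.5 times. Deviations of same-numbered samples correlated across genes by 0.169 to 0.443 between WT and Sp1ΔDBD/ΔDBD and by -0.0255 to 0.151 between WT and Sp3-/-, above 0.1 in all 5 populations for Sp1ΔDBD/ΔDBD only. Each comparison holds 2 numbered pairs and no source ties a number to a day, so the pairing was not taken as established. Within WT blast culture, where the block by culture was chosen after seeing the data, it called 6 from HE1 to HE2, and 31.0% of all genes.

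With single samples or 1 replicate of blast culture left out, the count ranged, in the order ESC, Flk1+, HE1, HE2 and progenitor, from 0 to 1, 0 to 0, 0 to 2, 0 to 1 and 0 to 3 in Sp1ΔDBD/ΔDBD against WT, from 0 to 0, 0 to 0, 0 to 8, 0 to 2 and 0 to 1 in Sp3-/- against WT, and from 0 to 1, 0 to 0, 0 to 2, 0 to 2 and 0 to 3 between the mutants. Along the WT steps it ranged from 0 to 1, 5 to 9, 0 to 3 and 0 to 0, and between the steps of mutant and WT from 0 to 1 for Sp1ΔDBD/ΔDBD from ESC to Flk1+ cells, from 0 to 3 for Sp3-/- from Flk1+ cells to HE1, and from 0 to 1 in the later Sp3-/- steps. Where 1 replicate of all blast culture populations was left out, the spread came from ESC and Flk1+ cells alone. Counts from those fits do not measure the spread within blast culture. Every fit with samples left out leaves 1 sample in a group. Its counts therefore cannot be set beside the shares of all genes in the main fit, and are no result about the members. The sign turned in 13 cases. In Sp1ΔDBD/ΔDBD HE1 against WT, without replicate 1 of WT, Acta2 was at 0.41, Actc1 at 0.15, Tagln at 0.69 and Tpm1 at 0.67. Without replicate 2 of Sp1ΔDBD/ΔDBD, Acta2 was at 0.32, Actc1 at 0.90, Tagln at 0.47 and Tpm1 at 0.16, and without replicate 1 of all blast culture populations Tpm1 was at 0.47. The lowest values with a sample left out were -1.94 for Acta2, -4.60 for Actc1, -1.46 for Tagln and -0.74 for Tpm1. In Sp3-/- HE1 against WT Myl9 ranged from -1.78 to 0.67. It was at -1.78 without replicate 2 of all blast culture populations and at -1.56 without replicate 2 of WT. It was at 0.45 without replicate 1 of WT and at 0.67 without replicate 1 of all blast culture populations. From HE1 to HE2 Actc1 ranged from -3.61 to 0.38, with 0.38 without replicate 1 of WT HE1 and 0.25 without replicate 2 of WT HE2.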
